A study of Tupaia belangeri chinensis with 36 samples.

Results

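The testis was compared with the epididymis of the Chinese tree shrew in the non-reproductive season (NR) across all genes of a poly(A) RNA-seq table. The libraries were chosen by their labels alone: 3 of the testis (TESTIS-NR) against 6 of the epididymis, which are 3 of its head (CAPUT-NR) and 3 of its tail (CAUDA-NR). These are 9 of the 36 samples of the series, 18 of which are RNA-seq libraries. Animals of all 3 groups were Tupaia belangeri chinensis males of 1.5 to 2 years, with no treatment named, collected in December 2023. The reproductive-season libraries (R, collected in April 2024), 3 each of TESTIS-R, CAPUT-R and CAUDA-R, serve below as a second set of the same tissues. Season and collection date cannot be told apart. Whole tissue was extracted, the RNA integrity number was at least 7 and paired reads of 150 nt were sequenced.

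The testis holds the seminiferous tubules, where germ cells pass through mitosis, meiosis and spermiogenesis beside Sertoli cells, and Leydig cells between the tubules that make androgens. The epididymis is a long duct whose epithelium secretes proteins into the lumen. Sperm gain motility on the way from the caput to the cauda, where they are stored. Male germ cells are known for transcribing an unusually broad range of genes, and in many seasonal breeders spermatogenesis slows or stops outside the breeding season. In bulk tissue, fewer cells of a type and less RNA per cell cannot be told apart.

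The table holds 27777 genes, and 4080 of them had 0 counts in all 9 NR libraries. Genes carry identifiers of a tree shrew database, and 0 of them matched the available table of gene symbols. Genes are therefore given by identifier, and the tissue labels could not be checked against defining markers. Total counts ran from 30092535 to 35479929 in TESTIS-NR libraries and from 26703225 to 29144256 in the 6 epididymal ones. Levels are given as CPM, the counts of a gene per 1000000 counts of its library.

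The library labelled TESTIS-NR 3 stood apart from the other testes of its season. Across 18398 genes its rank correlation with the epididymal libraries was 0.494 to 0.584, against 0.685 to 0.751 for TESTIS-NR 1 and 0.715 to 0.754 for TESTIS-NR 2. Epididymal libraries correlated at 0.904 to 0.967 with each other. Its rank correlation was 0.873 with TESTIS-NR 1 and 0.780 with TESTIS-NR 2, while those libraries reached 0.939 with each other. These correlations are across genes, which are not independent replicates. The biological coefficient of variation estimated by edgeR was 75.8% in TESTIS-NR and 52.2% without TESTIS-NR 3, against 52.3% in CAPUT-NR and 44.7% in CAUDA-NR. It was 32.5% in TESTIS-R. Comparisons of the NR tissues below are given with and without that library.

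Genes that differed between the tissues made up 54.3% of those tested in the NR season, and the genes higher in testis outnumbered those lower most clearly among large changes. With all 9 libraries, 18398 genes passed the filter on low counts, and edgeR's quasi-likelihood test called 9997 of them (54.3%) at a Benjamini-Hochberg adjusted p under 0.05. Of the genes tested, 5655 (30.7%) were higher in testis and 4342 (23.6%) were lower. Without TESTIS-NR 3, 10222 of 18850 genes (54.2%) were called, 5480 higher (29.1%) and 4742 lower (25.2%). Called genes had a median log2 change, testis minus epididymis, of 2.70 where higher and -2.12 where lower, beside a median of 0.12 over all genes tested. Without TESTIS-NR 3 these medians were 2.03, -1.87 and 0.06.

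The ratio of genes higher to genes lower in testis grew with the size of the change. At an estimated change of 2-fold or more, 4976 called genes were higher and 3778 lower in testis. At 8-fold or more there were 2595 higher and 1425 lower, and at 32-fold or more 1464 higher and 491 lower. Without TESTIS-NR 3 the counts at 2-fold were 4153 higher and 3610 lower, at 8-fold 2029 higher and 1341 lower, and at 32-fold 1075 higher and 436 lower. The sign of these changes depends on scaling by trimmed mean of M-values (TMM), which assumes that most genes do not differ. For genes with 0 counts in the lower tissue, the size of the fitted change is not measured. With all libraries these were 147 of the genes called higher and 171 of those called lower. Without TESTIS-NR 3 they were 192 and 202.

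**Figure D1:**
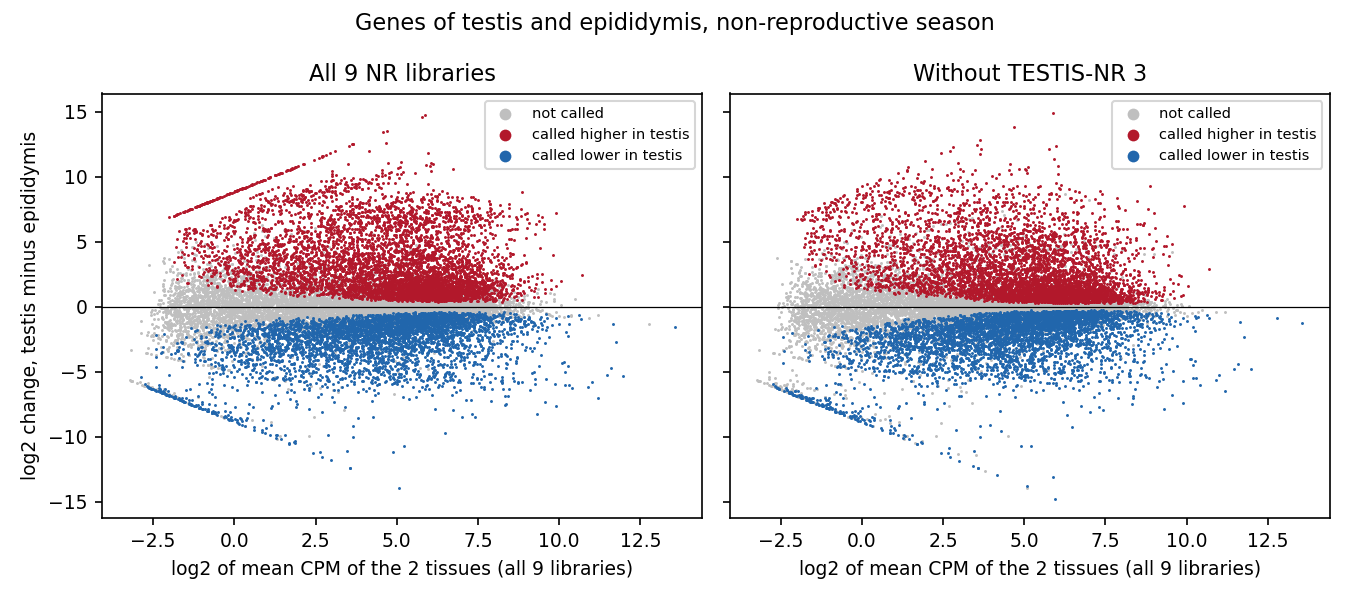
Each point is a gene, with its log2 change (testis minus epididymis) on the y axis and the log2 of its mean CPM over both tissues on the x axis, for all 9 NR libraries (left) and without TESTIS-NR 3 (right). Red points are the 5655 genes higher and blue points the 4342 genes lower in testis with all libraries. The red cloud reaches farther from 0 than the blue one in both panels.

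The direction of the calls differed with the level of the gene. Among genes whose mean was under 1 CPM in the tissue where they were higher, 8.33% of 1297 were called higher and 10.6% lower in testis. Between 100 and 1000 CPM, 1681 of 3870 genes (43.4%) were higher and 1019 (26.3%) lower. Among the 92 genes at 1000 CPM or more the order was the other way round, with 25 higher (27.2%) and 51 lower (55.4%) in testis. In the fit lacking TESTIS-NR 3, 17 of 84 genes at 1000 CPM or more were higher and 54 lower, and 1304 higher and 1159 lower of 3411 between 100 and 1000 CPM. Under 1 CPM the order was turned, with 10.7% of 1796 genes higher and 6.85% lower in testis. The filter on low counts follows the smallest group, here 2 testis libraries, so more genes under 1 CPM were tested. Genes high only in TESTIS-NR 1 and 2 can pass it. The 2 fits are therefore not alike at this level, and the part of the filter was not tested.

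The called genes took up a large part of each library. Genes called higher held 44.5%, 42.1% and 64.9% of the library in TESTIS-NR 1, 2 and 3, against 12.8% to 13.7% in the 6 NR epididymal libraries. They held 64.2% to 64.8% in TESTIS-R libraries, against 13.1% to 18.5% in R epididymal libraries, the highest in CAPUT-R 3. The value of TESTIS-NR 3, which took part in these calls, was next to those of the TESTIS-R libraries. TESTIS-NR 1 and 2 lay between those and the epididymal ones. Genes called lower held 15.3%, 15.4% and 6.59% in TESTIS-NR libraries, against 46.2% to 49.1% in NR epididymal ones. They held 6.66% to 6.88% in TESTIS-R libraries. The genes called higher without TESTIS-NR 3 held 46.8% and 46.4% in TESTIS-NR 1 and 2, against 14.6% to 15.5% in NR epididymal libraries, and those called lower held 18.1% and 18.2%, against 51.2% to 53.04%. The NR shares rest on the same libraries as the calls and are a description.

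Whether single libraries of the tissues overlapped was counted gene by gene. Of all genes tested, 4621 (25.1%) had all 3 TESTIS-NR libraries above all 6 epididymal ones, and 4387 (23.8%) had all 3 below. Of the 5655 genes called higher, 4349 (76.9%) were separated in this way. Of the 4342 called lower, 3894 (89.7%) were separated. Without TESTIS-NR 3, both testis libraries lay above all 6 epididymal ones for 5853 of 18850 genes (31.1%) and below for 5037 (26.7%). Of the calls without it, 5030 of 5480 higher (91.8%) and 4414 of 4742 lower (93.1%) were separated. The shares among called genes rest on the libraries that made the calls, so high values follow from the choice.

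Calls made without TESTIS-NR 3 were then read in that library, which they had not used, against the same 6 epididymal libraries. TESTIS-NR 3 lay above all 6 for 4293 of the 5480 genes called higher (78.3%) and below all 6 for 483 (8.81%). Among all 18850 genes tested it lay above for 36.6% and below for 41.7%. It lay below all 6 for 4224 of the 4742 genes called lower (89.1%) and above for 104 (2.19%). Most differences between the tissues in TESTIS-NR 1 and 2 were thus present in TESTIS-NR 3, and the exceptions were more frequent on the testis side. Set against the mean of TESTIS-NR 1 and 2, on a scale of log2(CPM + 0.5), TESTIS-NR 3 differed by a median of 0.38 over genes called higher, -0.53 over genes called lower and -0.16 over all genes tested. Of the genes called higher, 2050 (37.4%) were at least 2-fold higher and 1307 (23.9%) at least 2-fold lower in TESTIS-NR 3. Of the genes called lower, 427 (9.005%) were at least 2-fold higher and 1531 (32.3%) at least 2-fold lower, beside 22.4% and 24.5% of all genes tested.

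The R libraries gave a second reading, in which only R libraries were set against each other. The NR libraries still entered through the genes tested and through TMM scaling over all 18 libraries. The 3 TESTIS-R libraries lay above all 6 R epididymal ones for 3915 of the 5480 genes called higher without TESTIS-NR 3 (71.4%), below for 357 (6.51%), and overlapped for 1208. Over all 18850 genes the shares were 32.5% above and 35.6% below. Of the 4742 genes called lower, 3854 (81.3%) lay below in TESTIS-R and 86 (1.81%) above. For the calls with all 9 libraries, 4827 of 5655 genes called higher (85.4%) lay above in TESTIS-R and 28 (0.495%) below. Of the 4342 called lower, 3667 (84.5%) lay below and 5 (0.115%) above. Over all 18398 genes of that fit the shares were 35.4% above and 33.6% below. These calls had used TESTIS-NR 3, whose shares of counts were next to those of TESTIS-R.

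**Figure D2:**
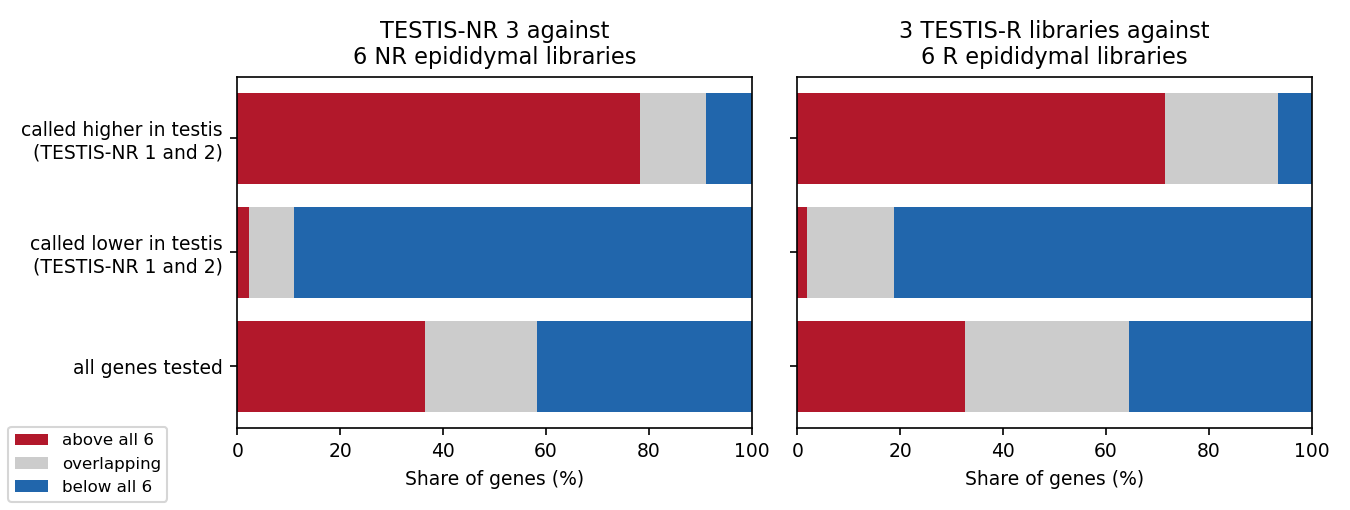
Bars give the share of genes (%) for which TESTIS-NR 3 (left) or all 3 TESTIS-R libraries (right) lie above, overlap with or lie below all 6 epididymal libraries of their season, for genes called without TESTIS-NR 3 and for all genes tested. TESTIS-NR 3 lies above for 78.3% of genes called higher and below for 89.1% of genes called lower, and TESTIS-R libraries for 71.4% and 81.3%.

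With and without TESTIS-NR 3, 4727 genes were called higher in both fits, which is 83.6% of the calls with it and 86.3% of those without. The number called lower in both was 4037, or 93.0% and 85.1%. The number called in opposite directions was 0. The fits share 8 libraries.

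The identifiers with the largest fitted change among called, separated genes of at least 100 CPM are given in each direction. The rule, applied with all 9 libraries, was met by 1327 genes among those higher and 989 among those lower. The 2 named among those higher had 0 epididymal counts, so their rank rests on a size that is not measured. TSDBGID.26309 had 117, 148 and 87.5 CPM, TMM scaled, in TESTIS-NR 1, 2 and 3, and 0 counts in each of the 6 epididymal libraries. The testes of the season were alike in this gene, and TESTIS-NR 3 was the lowest of them. Its mean of 117.6 ± 30.5 CPM (SD, n = 3) was at least 6506-fold higher than the floor of 3 counts over the epididymal libraries, 0.0181 CPM, and at least 7337-fold without TESTIS-NR 3. The adjusted p of edgeR's quasi-likelihood test was 1.92e-04, and 1.97e-04 without TESTIS-NR 3. On the scale of all 18 libraries it had 99.3, 101 and 109 CPM in TESTIS-R. CAPUT-R 3 had 256 counts of it, and the other R epididymal libraries had 0.

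TSDBGID.17220 varied far more between the testes. It had 36.5, 2.11 and 290 CPM in TESTIS-NR 1, 2 and 3, and 0 counts in the 6 epididymal libraries. TESTIS-NR 3 set most of the mean of 109 ± 157 CPM (SD, n = 3), and the SD exceeded the mean. The mean was at least 6057-fold above the epididymal floor with all libraries and at least 1069-fold without TESTIS-NR 3. The adjusted p was 0.00957 by edgeR's quasi-likelihood test, and 0.0156 without TESTIS-NR 3. In TESTIS-R it had 274, 280 and 298 CPM on the scale of all 18 libraries, where TESTIS-NR 3 had 263 CPM. The CAPUT-R libraries had 740 counts of it in all and the CAUDA-R libraries 7.

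TSDBGID.2150 was near 0 in the testis. It had 0.358, 0.225 and 0 CPM in TESTIS-NR 1, 2 and 3, against 269, 116 and 214 CPM in CAPUT-NR and 165, 255 and 57.0 CPM in CAUDA-NR. The tissues did not overlap, and the segments did. The log2 change was -9.76 (SE 1.10, edgeR adjusted p 3.73e-04), -9.24 without TESTIS-NR 3 (adjusted p 3.10e-04) and -10.43 without TESTIS-NR 1. Against CAPUT-NR alone the log2 change was -9.92, and against CAUDA-NR alone -9.60. In the R season it had 0 counts in TESTIS-R, against 243, 43.6 and 157 CPM in CAPUT-R and 0.128, 57.7 and 185 CPM in CAUDA-R. CAUDA-R 1, with 4 counts, was thus at the level of the NR testes.

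TSDBGID.1343 was lower in testis than in either segment and differed in level between the segments. It had 1.64, 0.225 and 0 CPM in TESTIS-NR 1, 2 and 3, against 463, 427 and 888 CPM in CAPUT-NR and 49.8, 30.9 and 187 CPM in CAUDA-NR. Every caput library lay above every cauda library. The log2 change against both segments was -8.50 (SE 1.50, edgeR adjusted p 0.00246), -7.95 without TESTIS-NR 3 (adjusted p 0.00240) and -10.80 without TESTIS-NR 1. It was -9.87 against CAPUT-NR and -7.13 against CAUDA-NR. In the R season its level was 0.815 ± 0.537 CPM in TESTIS-R, against 687 ± 348 CPM in CAPUT-R and 232 ± 58.5 CPM in CAUDA-R (SD, n = 3 each). All 4 named genes were called in each of 20 alternatives, with a highest adjusted p of 0.00420 for TSDBGID.26309, 0.0245 for TSDBGID.17220, 0.0107 for TSDBGID.2150 and 0.00788 for TSDBGID.1343.

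**Figure D3:**
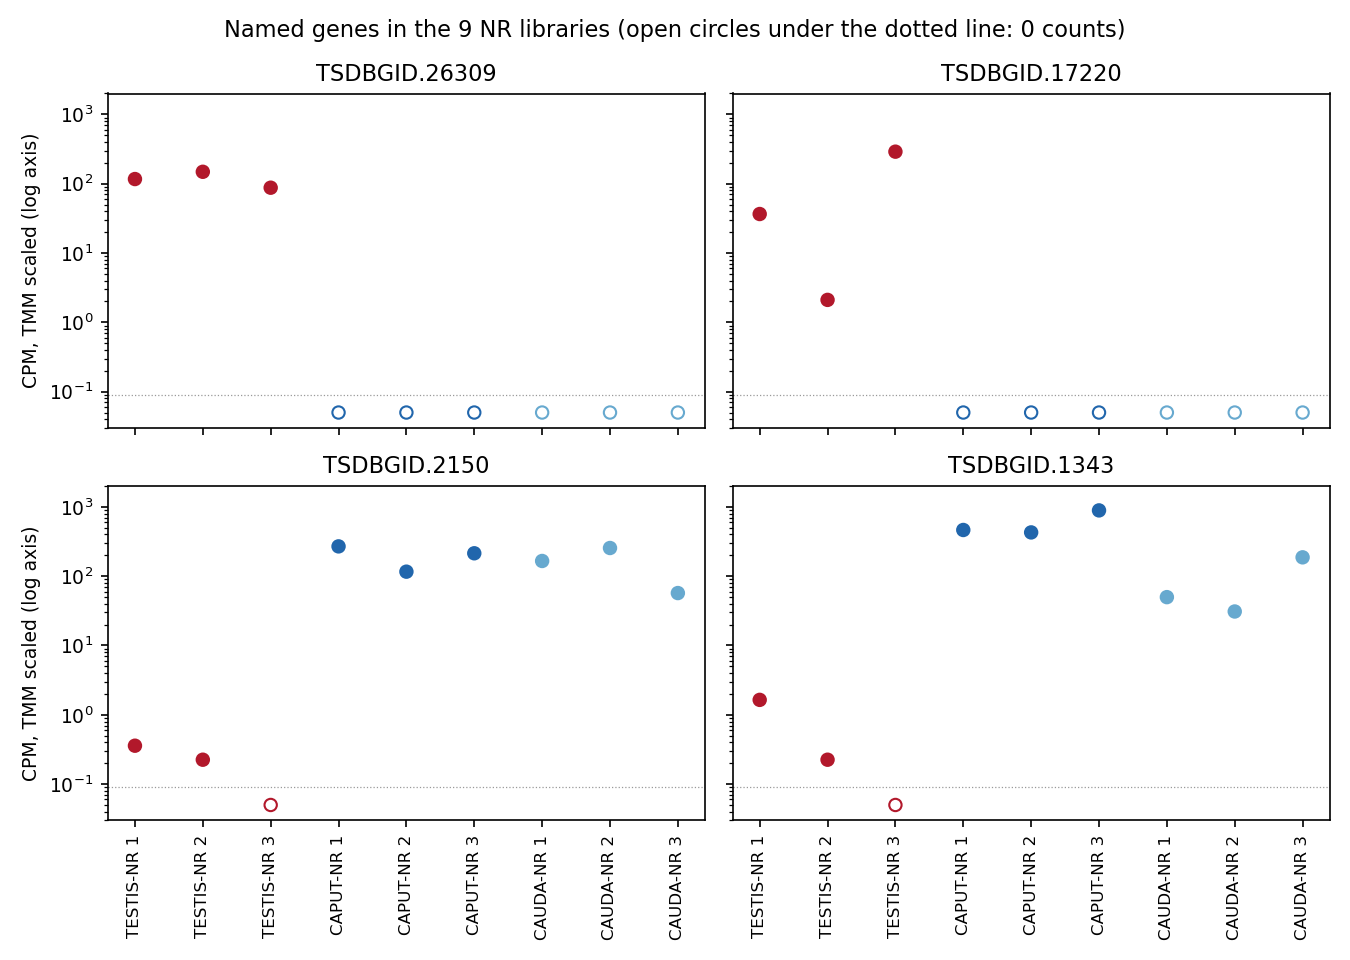
Level of the 4 named genes (CPM, TMM scaled, log axis) in each of the 9 NR libraries, with testis in red, caput in dark blue and cauda in light blue. Open circles under the dotted line mark 0 counts: the 6 epididymal libraries for TSDBGID.26309 and TSDBGID.17220, and TESTIS-NR 3 for TSDBGID.2150 and TSDBGID.1343.

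The testis was also compared with each segment, since the caput secretes and the cauda stores. Against CAPUT-NR, edgeR called 4284 genes higher (23.3%) and 3874 lower (21.1%) of 18398, or 8158 in all (44.3%). Against CAUDA-NR it called 4877 higher (26.5%) and 3867 lower (21%), or 8744 in all (47.5%). At 32-fold or more there were 1045 higher and 532 lower against CAPUT-NR, and 1605 higher and 507 lower against CAUDA-NR. Fewer genes of the highest fold were thus found on the testis side against the caput than against the cauda. These comparisons share the TESTIS-NR libraries, and the difference between their counts was not tested.

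Without TESTIS-NR 3, 4272 genes were higher (22.7%) and 4418 lower (23.4%) of 18850 against CAPUT-NR, 8690 in all (46.1%). Against CAUDA-NR 4907 were higher (26%) and 4419 lower (23.4%), 9326 in all (49.5%). The counts at 32-fold were then 665 higher and 517 lower against CAPUT-NR, and 1178 higher and 459 lower against CAUDA-NR. Leaving out CAPUT-NR 1 or 2 lowered the caput count and turned the balance of directions. Without CAPUT-NR 1, 2212 of 19208 genes tested were higher and 2743 lower (4955 in all). Without CAPUT-NR 2, 2266 of 19218 were higher and 2766 lower (5032 in all). Without CAPUT-NR 3, 3176 of 19235 were higher and 3140 lower. A similar number of genes was thus higher and lower against the caput, and which was larger depended on the libraries. In that fit, 1232 genes were at least 32-fold higher against CAPUT-NR and 1773 against CAUDA-NR.

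NR testis libraries held more genes at 1 CPM or more than epididymal ones, and fewer of their counts lay in the most abundant genes. The number of genes at 1 CPM or more was 15852, 15455 and 15163 in TESTIS-NR 1, 2 and 3. It was 15101, 14892 and 15259 in CAPUT-NR and 14639, 14723 and 14414 in CAUDA-NR. The tissues overlapped here, as CAPUT-NR 3 lay above TESTIS-NR 3. The testis mean of 15490 ± 346 (SD, n = 3) exceeded the epididymal mean of 14838 ± 310 (SD, n = 6) by 652 genes, with a two-sided exact permutation p of 0.0476. The Benjamini-Hochberg value over the 3 measures of breadth and evenness was 0.0476. The exact tests of all 3 measures count the caput and cauda libraries as 6 independent units. The labels do not say whether these share animals, and shared animals would leave fewer units and a larger smallest p. Without TESTIS-NR 1 the difference was 471 genes (exact p 0.143), without TESTIS-NR 2 it was 669.5 (exact p 0.143), and without TESTIS-NR 3 it was 815.5 (exact p 0.0714, the smallest that 2 against 6 libraries allow). The exact p was 0.0714 without any one of the epididymal libraries other than CAPUT-NR 3, where 0.0357 could be reached, and 0.0357 without CAPUT-NR 3.

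The 100 most abundant genes of each library held 11.1%, 11.9% and 13.1% of its total in TESTIS-NR 1, 2 and 3. They held 19.1%, 19.6% and 22.8% in CAPUT-NR and 18.2%, 18.5% and 20.04% in CAUDA-NR. Every testis library lay below every epididymal one. The difference of means was -7.73 percentage points (two-sided exact permutation p 0.0238, the smallest that 3 against 6 allow, 0.0357 after adjustment over 3 measures). Without TESTIS-NR 3 it was -8.27 points (exact p 0.0714). The 10 most abundant genes held a mean of 3.06% in TESTIS-NR, or 3.37% in TESTIS-NR 1 and 2, and 7.66% in the epididymis.

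The effective number of genes, the exponential of the Shannon entropy of the count shares, needs no threshold. It was 6678, 6315 and 5296 in TESTIS-NR 1, 2 and 3, against 4819, 4644 and 4127 in CAPUT-NR and 4842, 4792 and 4451 in CAUDA-NR. The tissues did not overlap, and TESTIS-NR 3 was the testis library nearest to the epididymis. The mean log2 difference was 0.40 (two-sided exact permutation p 0.0238, adjusted 0.0357), and 0.50 without TESTIS-NR 3 (exact p 0.0714).

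**Figure D4:**
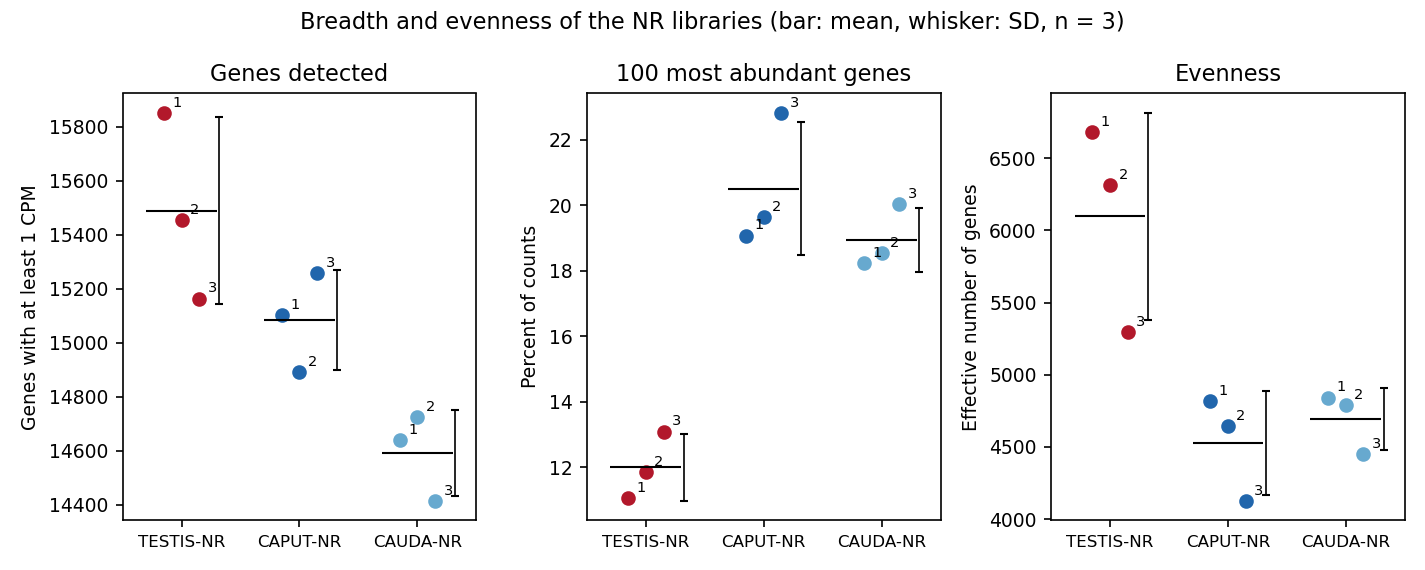
Genes with at least 1 CPM, percent of counts in the 100 most abundant genes and effective number of genes, 1 point per NR library with its replicate number, a bar for the mean and a whisker for the SD (n = 3). TESTIS-NR libraries lie below all 6 epididymal ones in the middle panel and above them in the right panel, while in the left panel CAPUT-NR 3 at 15259 lies above TESTIS-NR 3 at 15163.

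Some genes were found in every library of one tissue and in none of the other in the NR season. At least 1 CPM in all 3 TESTIS-NR libraries and 0 counts in all 6 epididymal ones were found for 59 genes, with a median of 4.58 CPM and a highest mean of 121.4 CPM. A count of 0 over the 6 libraries allows up to 0.0182 CPM, on the scale of library totals and for counting error only. Of the 59 genes, 52 had at least 1 CPM in all 3 TESTIS-R libraries. In the R epididymis 8 of the 59 (13.6%) were at 0 in all 6 libraries, and single R libraries had counts for 5 to 47 of them. Without TESTIS-NR 3 the number of such genes was 79, of which 74 had counts in TESTIS-NR 3.

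In the other direction, 22 genes had at least 1 CPM in all 6 epididymal libraries and 0 counts in all 3 TESTIS-NR ones, which allows up to 0.0310 CPM. Their median was 5.20 CPM and their highest mean 24.0 CPM. Of the 22, 17 (77.3%) were also at 0 in all 3 TESTIS-R libraries, and 14 had at least 1 CPM in all 6 epididymal ones. Without TESTIS-NR 3 the number was 30, of which 8 had counts in TESTIS-NR 3. The highest mean among these 30 was 122.8 CPM, so TESTIS-NR 3 had counts of an abundant epididymal gene that TESTIS-NR 1 and 2 had at 0. The 2 directions ask for 0 counts in unlike numbers of libraries, 6 and 3, in both seasons. Their numbers and R shares are therefore not comparable with each other. The share of all genes at 0 in the same R libraries was not counted.

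Gene sets chosen on the R libraries were then read in the NR libraries, which the choice did not use. The testis set held 618 genes with a mean of at least 20 CPM in TESTIS-R and a median under 1 CPM in the R epididymis. Its share of the counts was 2.48%, 1.72% and 5.67% in TESTIS-NR 1, 2 and 3, against 0.0448%, 0.0286% and 0.185% in CAPUT-NR and 0.0319%, 0.04996% and 0.0369% in CAUDA-NR. All testis libraries lay above all epididymal ones, and TESTIS-NR 3 lay just above the TESTIS-R range of 5.53% to 5.61%. The set was at 1 CPM or more for 607, 508 and 615 genes in TESTIS-NR 1, 2 and 3. Its median gene had 21.4, 4.63 and 58.2 CPM in these libraries.

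Single caput libraries of both seasons held many genes of the testis set. CAPUT-NR 3 had 405 of the 618 genes at 1 CPM or more, against 89 in CAPUT-NR 1 and 63 in CAPUT-NR 2, and 29 to 109 in CAUDA-NR. Its median gene had 1.42 CPM. In the R season, whose libraries chose the set, CAPUT-R 3 had 583 genes at 1 CPM or more, CAPUT-R 1 had 215 and CAPUT-R 2 had 37. CAPUT-R 3 had 0.456% of its counts in the set and a median gene of 4.62 CPM. The part of these genes in the caput comparison was not tested beyond the counts without CAPUT-NR 3 given above. All 3 TESTIS-NR libraries lay above all 6 epididymal ones for 441 of the 618 genes, and both TESTIS-NR 1 and 2 did for 444. Over all 18398 genes tested, on the same library-total scale, these shares were 24.5% and 35.1%, against 71.4% and 71.8% of the set. Singly, TESTIS-NR 1 did for 605, TESTIS-NR 2 for 447 and TESTIS-NR 3 for 610, so TESTIS-NR 2 set the count.

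The epididymis set, chosen by the mirror rule, held 347 genes. It took 0.165%, 0.173% and 0.0363% of the counts of TESTIS-NR 1, 2 and 3, against 3.05%, 2.86% and 3.98% in CAPUT-NR and 2.32%, 2.15% and 2.49% in CAUDA-NR. TESTIS-NR 3 was within the TESTIS-R range of 0.0214% to 0.0393%, and TESTIS-NR 1 and 2 were above it. The set was at 1 CPM or more for 263, 216 and 61 genes in TESTIS-NR 1, 2 and 3. All 3 TESTIS-NR libraries lay below all 6 epididymal ones for 266 of the 347 genes, and both TESTIS-NR 1 and 2 did for 268. That is 76.7% and 77.2% of the set, beside 21.9% and 23.4% of all genes tested.

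**Figure D5:**
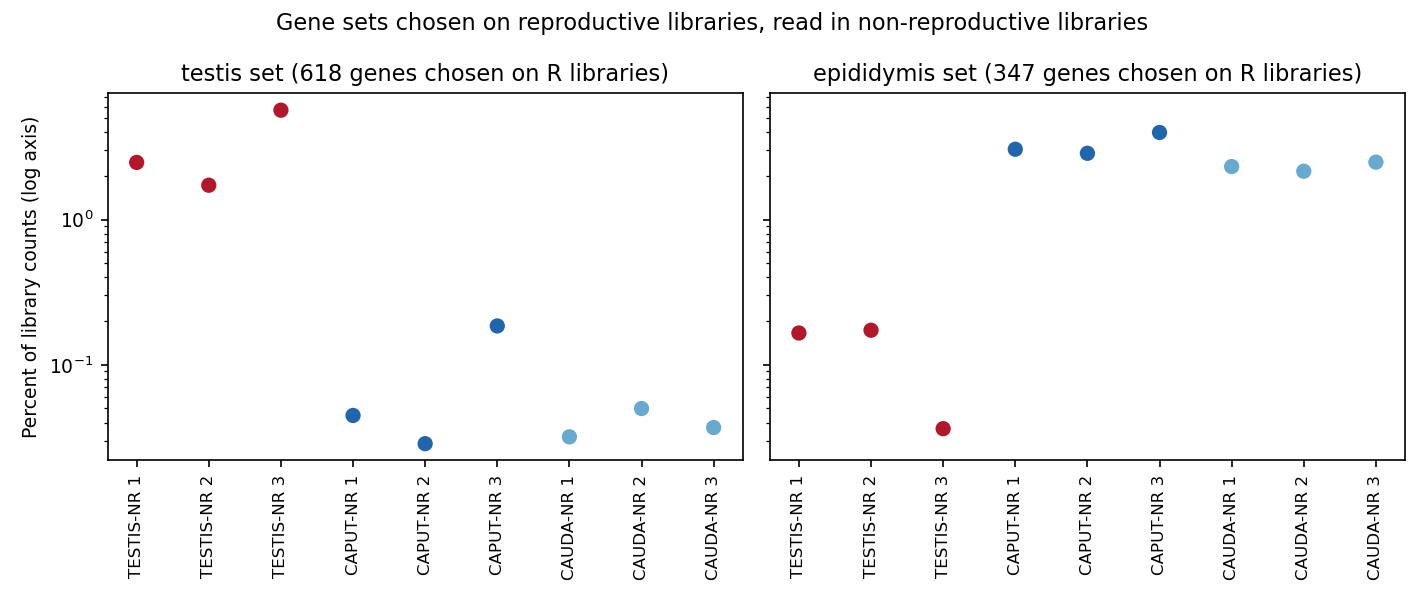
Percent of the counts of each NR library (log axis) taken by the testis set of 618 genes (left) and the epididymis set of 347 genes (right), both chosen on R libraries, with testis in red, caput in dark blue and cauda in light blue. TESTIS-NR 3 has the highest share of the testis set (5.67%) and the lowest of the epididymis set (0.0363%), and CAPUT-NR 3 has the highest epididymal share of the testis set (0.185%).

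The difference between the tissues in the NR season was set against that in the R season in a fit over all 18 libraries. With all libraries, edgeR called 922 of 19680 genes (4.68%): for 812 (4.13%) the testis minus epididymis difference was higher in NR than in R, and for 110 (0.559%) it was lower. At an unadjusted p under 0.05 there were 5053 genes. Without TESTIS-NR 3, 7667 of 20105 genes (38.1%) were called, 4891 higher (24.3%) and 2776 lower (13.8%). The calls with all libraries were all among them in the same direction. With the replicate number as a block, 4 genes were called, although the labels do not say whether the numbers pair the samples. The count rested on single libraries of either season and tissue. It fell to 8 without TESTIS-NR 2, was 651 to 773 without CAPUT-NR 3, CAUDA-NR 3 or CAPUT-R 2, and lay between 10 and 39 without any one of TESTIS-NR 1, CAPUT-NR 1 or 2, CAUDA-NR 1 or 2, TESTIS-R 1, 2 or 3, CAPUT-R 1 or 3, or CAUDA-R 1, 2 or 3.

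The named genes of the season comparison are those with the smallest p among called genes of at least 20 CPM in 1 group, on the scale of all 18 libraries. TSDBGID.10922 had 40.7, 53.1 and 24.9 CPM in TESTIS-NR 1, 2 and 3, against 82.9, 73.0 and 92.8 CPM in CAPUT-NR and 75.3, 66.2 and 74.1 CPM in CAUDA-NR. In the R season it had 11.4, 10.2 and 8.28 CPM in TESTIS-R, against 133, 122 and 112 CPM in CAPUT-R and 83.9, 69.4 and 80.3 CPM in CAUDA-R. It was lower in testis in both seasons, by less in NR. The difference of the log2 changes, NR minus R, was 2.33 (SE 0.28, edgeR adjusted p 0.00328), and 2.74 without TESTIS-NR 3 (adjusted p 1.27e-06).

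TSDBGID.25860 had 1.09, 1.06 and 0.519 CPM in TESTIS-NR 1, 2 and 3, against 18.6, 19.4 and 9.67 CPM in CAPUT-NR and 29.1, 29.1 and 13.001 CPM in CAUDA-NR. In the R season it had 0 counts in TESTIS-R, against 7.54, 10.4 and 8.39 CPM in CAPUT-R and 11.4, 6.87 and 9.29 CPM in CAUDA-R. It was thus found in every NR testis library and in no R one. The adjusted p of the season difference was 0.0108 by edgeR, and 4.80e-05 without TESTIS-NR 3.

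TSDBGID.22647 had 3.15, 2.22 and 3.49 CPM in TESTIS-NR, against 29.7, 24.6 and 23.4 CPM in CAPUT-NR and 86.7, 61.7 and 57.5 CPM in CAUDA-NR. In the R season it had 8.97, 8.74 and 7.20 CPM in TESTIS-R, against 4.40, 8.72 and 4.46 CPM in CAPUT-R and 21.3, 25.6 and 14.1 CPM in CAUDA-R. The NR tissues did not overlap, while in R the testis lay between the segments, overlapping the caput. The log2 season difference was -3.44 (SE 0.38; edgeR adjusted p 0.00277), and -3.43 without TESTIS-NR 3 (adjusted p 2.59e-05).

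TSDBGID.1844 lay on opposite sides of the epididymis in the seasons. It had 26.2, 30.7 and 13.5 CPM in TESTIS-NR, against 78.7, 67.6 and 71.8 CPM in CAPUT-NR and 63.9, 80.5 and 72.3 CPM in CAUDA-NR. Its R values were 95.6, 113 and 128 CPM in TESTIS-R, against 62.7, 55.9 and 49.4 CPM in CAPUT-R and 59.2, 48.1 and 55.4 CPM in CAUDA-R. The testis was below all epididymal libraries in NR and above all of them in R. The log2 season difference was -2.66 (SE 0.30; edgeR adjusted p 0.00277), and -2.22 without TESTIS-NR 3 (adjusted p 4.58e-06). Over 25 alternatives the highest adjusted p was 0.0555 for TSDBGID.10922, which was with the block, 0.0479 for TSDBGID.25860, 0.0127 for TSDBGID.22647 and 0.0314 for TSDBGID.1844.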

How the data were processed

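The authors deposited raw read counts per gene, 1 column per library and not normalized. Per the submitters' processing notes, featureCounts and bedtools were used, with aligner, genome build and strand setting not given in the sources used here. Reads that paralogs or overlapping genes share may be split between identifiers. The labels state biological replicates and not which samples share an animal. The small RNA tables were not used.

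Genes passing filterByExpr were fitted with edgeR 4.0.16 in R 4.3.3 (TMM scaling, 3 group means, robust quasi-likelihood), with TESTIS-NR set against the mean of CAPUT-NR and CAUDA-NR. Counts are called at a Benjamini-Hochberg adjusted p under 0.05 over all genes tested, and fold classes use the fitted log2 change. The SE given with a log2 change is its absolute value divided by the square root of the quasi-likelihood F statistic. The season comparison fitted 6 group means to 18 libraries. CPM of breadth, evenness, zero-count genes and sets uses library totals, and named genes are TMM scaled. DESeq2 1.42.0 and limma 3.58.1 gave alternatives.

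Named genes are the 2 with the largest change in each direction among called genes with all TESTIS-NR libraries separated from all 6 epididymal ones and a mean of at least 100 CPM in the higher tissue. For the season difference they are the 2 in each direction with the smallest p and at least 20 CPM in 1 group. The comparison, the sets and the planned marker lists were chosen with earlier results of these data known; the lists could not be read for want of gene names. RNA-seq columns that were identical numbered 0 pairs, and columns that were means of others numbered 0. Unique molecular identifiers were not mentioned, so bounds from 3 counts cover counting error only.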

Additional observations from a re-analysis of the deposited data

Results flagged for a closer look

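The testis minus epididymis difference itself differed between the seasons for 922 genes, by edgeR's quasi-likelihood test of NR minus R over 18 libraries. Among the named genes, the adjusted p of this test was 0.00328 for TSDBGID.10922, 0.0108 for TSDBGID.25860, 0.00277 for TSDBGID.22647 and 0.00277 for TSDBGID.1844. The 922 genes rest on 3 TESTIS-NR libraries that are not alike. Leaving out 1 library gave 8 genes without TESTIS-NR 2 to 7667 without TESTIS-NR 3. Over all alternatives run, the number ranged from 4 with the replicate block to 9425 by voom. TSDBGID.10922 had an adjusted p of 0.0555 with the block.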

How the results depend on the processing

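Calls at a tested change of at least 2-fold numbered 6098 against the whole epididymis, 4577 against CAPUT-NR and 5357 against CAUDA-NR. Leaving out 1 library gave 8843 to 10222, 4955 to 8690 and 5873 to 9326 calls. Scaling by library totals (9072), DESeq2 size factors (10140), no filter (10049), DESeq2 (11658) and voom with quality weights (11975) kept the count against the epididymis within 1.5 times the value reported. So did leaving out TESTIS-NR 3 and CAPUT-NR 3 together (10195), chosen after seeing the data. The median log2 change was 0.35 by DESeq2, over genes not passed through the filter on low counts, against 0.12 over the filtered genes by edgeR. These are unlike sets of genes. By edgeR it was 0.22 with no filter and 0.21 with DESeq2 size factors.

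The season difference was unstable: 10 calls at a tested 2-fold change, 2305 by library totals, 453 with no filter, 2626 by DESeq2, 9425 by voom and 8 to 7667 leaving out 1 library. The share of calls that were higher was 52.8% by voom and 76.4% by DESeq2, against 88.1%.

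The labels do not say whether replicate numbers pair the samples, and a check on 3 libraries per group cannot decide it. Correlations of same-numbered deviations ran from -0.11 to 0.27. Libraries correlated best with their own number in 2 of 3 cases for testis with caput and 2 of 3 for caput with cauda. For testis with cauda it was 0 of 3. With the replicate block 9050 genes were called against the epididymis, 4945 higher and 4105 lower in testis. There were 7151 against CAPUT-NR (3568 higher, 3583 lower), 7475 against CAUDA-NR (3881 higher, 3594 lower) and 4 for the season difference. TSDBGID.10922 had an edgeR adjusted p of 0.0555 with the block. With the block and without TESTIS-NR 3, 4518 genes were higher and 4474 lower in testis than in the epididymis, so the directions were near balance.

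Leaving out 1 library moved the difference in genes detected between 471 and 815.5, that in the share of the 100 most abundant genes between -8.27 and -7.11 points, and that in log2 effective genes between 0.33 and 0.50. Each lost its call when a testis library was left out, where p cannot go below 0.0714. Genes detected also lost its call without any 1 epididymal library except CAPUT-NR 3. At 5 CPM, 8 testis genes were at 0 in epididymis and 4 the reverse. The testis set averaged 0.0654% of TESTIS-NR counts if every R epididymal library had to be under 1 CPM, which left 23 of its 618 genes, and the epididymis set 0.263% with a mean of at least 5 CPM, which gave 964 genes in place of 347.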
